A study of Mus musculus with 6 samples.

Results

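The 32 genes described here encode proteins of the mitotic spindle, the kinetochore, the spindle checkpoint and cytokinesis. They were chosen by gene symbol for these roles, with earlier results of these data known. All 32 were found among the 21957 genes listed for every library. The study sequenced RNA from renal cortex of C57BL/6 mice in 3 libraries taken 24 h after reperfusion (IR24h) and in 3 sham libraries. Both renal pedicles of the IR24h mice, all labelled wild type like the sham mice, had been clamped for 30 min, which produces acute kidney injury. The sources used here do not give the sham procedure, the age or sex of the mice or whether each library came from its own mouse, so that p-values measure the spread between these libraries.

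During mitosis, kinetochores built on centromeric chromatin bind spindle microtubules, and checkpoint kinases hold back anaphase until every chromosome is attached. The anaphase-promoting complex then marks securin and cyclin B for destruction, and a ring of actomyosin divides the cell. Cells of the adult kidney seldom divide, whereas surviving tubule cells are known to enter the cell cycle and replace lost neighbours after ischemic injury. Most of the genes described here are transcribed mainly in late S phase, G2 and mitosis. That timing is known to depend on the cell cycle genes homology region (CHR), a short promoter element bound by the MuvB complex, and on nearby CCAAT boxes bound by NF-Y.

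These elements were looked for in the RefSeq promoters (GRCm38.p6), windows of 300 bases that run from 250 bases before to 50 bases after the annotated start. Windows were matched by symbol for 28 of the 32 genes, 30 windows in all, with 2 overlapping windows each for Ect2 and Prc1. The CHR was searched as TTTGAA or its variant TTCGAA, and the NF-Y box as CCAAT, on both strands, and matches were allowed to overlap. A CHR match was held by 25 of the 30 windows (83.3%), against 13.9% of the 13512 windows of all genes tested and 19.2% of the 32851 windows of all genes. A CCAAT match was held by 23 windows (76.7%), against 37.3% in all genes tested, and both were held by 22 windows (73.3%), against 5.62%. In 23 of the 30 windows (76.7%) a CHR match began within 50 bases of the start, against 3.54% in all genes tested. The windows of Birc5, Mad2l1, Nuf2 and Nusap1 held neither match, and that of Cenpe a CCAAT match without a CHR. The promoters below, 5′ to 3′ on the strand of the gene, belong to the 6 most abundant genes with a CHR match (mean CPM, counts scaled to a common library size, in the higher group), shown because they carry the shared element. Capitals mark the CHR and NF-Y box matches on either strand.
Kif23, chr9:61946750-61947049, minus strand: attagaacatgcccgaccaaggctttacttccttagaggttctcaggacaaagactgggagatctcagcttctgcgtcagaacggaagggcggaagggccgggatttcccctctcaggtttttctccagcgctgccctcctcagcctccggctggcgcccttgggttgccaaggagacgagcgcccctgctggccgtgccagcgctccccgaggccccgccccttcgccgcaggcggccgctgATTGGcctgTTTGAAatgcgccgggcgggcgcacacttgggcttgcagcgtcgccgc
Spc25, chr2:69206164-69206463, minus strand: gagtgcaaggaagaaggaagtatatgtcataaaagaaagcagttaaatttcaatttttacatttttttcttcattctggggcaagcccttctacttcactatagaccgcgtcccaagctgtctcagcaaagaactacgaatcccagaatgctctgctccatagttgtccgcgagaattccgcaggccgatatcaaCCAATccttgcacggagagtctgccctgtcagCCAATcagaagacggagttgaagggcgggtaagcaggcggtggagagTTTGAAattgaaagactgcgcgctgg
Mki67, chr7:135716330-135716629, minus strand: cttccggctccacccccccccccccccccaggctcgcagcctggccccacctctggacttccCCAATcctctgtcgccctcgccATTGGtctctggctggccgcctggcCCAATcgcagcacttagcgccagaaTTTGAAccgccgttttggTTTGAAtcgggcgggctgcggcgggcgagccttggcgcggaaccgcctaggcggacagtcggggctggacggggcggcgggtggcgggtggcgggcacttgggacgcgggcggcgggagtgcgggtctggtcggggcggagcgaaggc
Top2a, chr11:99024140-99024439, minus strand: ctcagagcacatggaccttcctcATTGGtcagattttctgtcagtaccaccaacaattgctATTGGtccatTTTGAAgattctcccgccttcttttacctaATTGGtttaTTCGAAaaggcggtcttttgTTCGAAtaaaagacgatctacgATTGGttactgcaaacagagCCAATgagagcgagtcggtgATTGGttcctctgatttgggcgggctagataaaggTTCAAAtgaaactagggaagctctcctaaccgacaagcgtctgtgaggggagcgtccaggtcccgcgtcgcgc
Prc1, chr7:80294201-80294500, plus strand: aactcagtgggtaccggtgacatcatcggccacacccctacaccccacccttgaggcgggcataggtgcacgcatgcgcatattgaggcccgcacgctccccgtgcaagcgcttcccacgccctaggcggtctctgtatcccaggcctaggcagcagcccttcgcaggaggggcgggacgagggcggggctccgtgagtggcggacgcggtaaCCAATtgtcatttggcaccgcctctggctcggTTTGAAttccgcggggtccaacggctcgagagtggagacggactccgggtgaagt
Ect2, chr3:27153805-27154104, minus strand: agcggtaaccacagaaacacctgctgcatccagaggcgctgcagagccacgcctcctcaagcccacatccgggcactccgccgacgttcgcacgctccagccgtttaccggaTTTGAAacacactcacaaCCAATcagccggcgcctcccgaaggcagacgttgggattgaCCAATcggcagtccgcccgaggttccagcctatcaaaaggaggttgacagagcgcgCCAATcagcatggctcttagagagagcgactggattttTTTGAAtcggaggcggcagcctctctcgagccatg

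In Kif23 the CCAAT match begins 7 bases before the annotated start and the CHR match at base 3 after it. In Top2a, 4 CHR and 6 CCAAT matches are spread over the window. These matches describe letters in the windows and do not show that a factor was bound. Among the tested genes with a window, the median of the log2 fold changes was 0.75 for the 22 with a CHR match and 1.25 for the 5 without one.

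**Figure D1:**
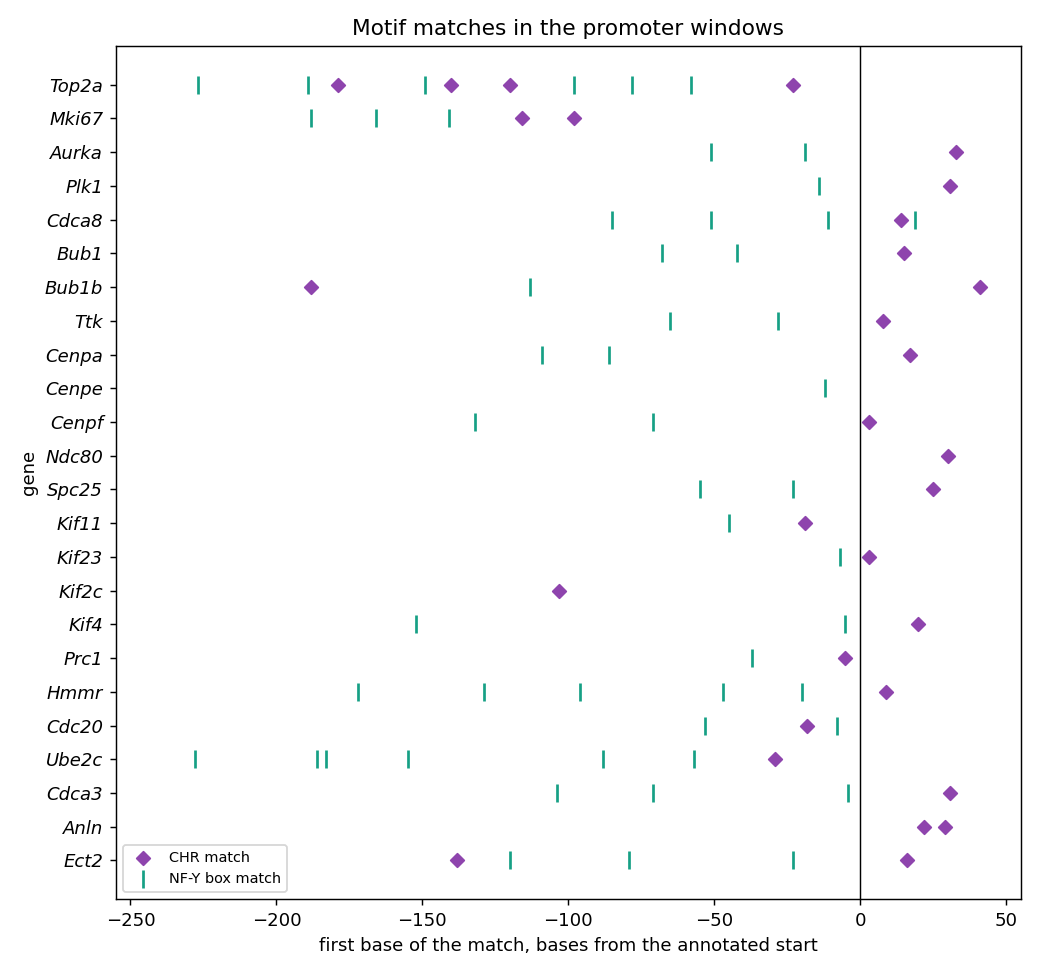
Positions of motif matches in the promoter windows of 24 genes that held any match, in bases from the annotated start (vertical line); where a gene had 2 windows, the one with the lower coordinate is plotted. Purple diamonds mark CHR matches and green ticks mark NF-Y box matches, and most diamonds lie between 50 bases before and 50 bases after the start.

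Library totals were 12877237 to 15998975 counts in IR24h and 14339985 to 17061844 counts in sham. Genes of the mitochondrial genome took 26.2 to 68.9% of the counts in IR24h libraries and 13.1 to 14.2% in sham libraries, which left 4008001 other counts in IR24h library 1. Tubular injury markers were higher for 5 of 5 genes, and proximal tubule markers were present in every library and lower for 3 of 5. IR24h 2 stood apart, with a correlation of log2 CPM of 0.823 and 0.836 with IR24h 1 and 3 and of 0.848 to 0.859 with the sham libraries. The 7 adipocyte markers summed to 76.7, 150 and 83.8 CPM in IR24h 1, 2 and 3 and to 13.5 to 23.5 CPM in sham. Lep (22.2 CPM), Plin1 (12.6 CPM) and Retn (1.58 CPM) had counts in IR24h 2 only, while Fabp4, the 1 marker tested and called higher, had 66.8, 65.1 and 82.9 CPM in IR24h.

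Few of the 32 mitotic genes passed the test, and most were at low levels in both groups. By the authors' FPKM values, which are scaled by gene length, 30, 26 and 21 of the 32 lay under 1 FPKM in IR24h 1, 2 and 3 and 29, 30 and 30 in sham 1, 2 and 3. FPKM values do not carry the scaling used for CPM, so these numbers are not compared between libraries. Under 1 CPM lay 9, 5 and 2 of the 32 in IR24h 1, 2 and 3 and 5, 6 and 6 in sham 1, 2 and 3. Kif23, a kinesin of cytokinesis, was 10.1-fold higher in IR24h than in sham, and Nuf2, a kinetochore subunit, was 3.46-fold higher. The bulk cortex holds many cell types, so that more or fewer dividing cells and a change in RNA per cell cannot be told apart. Of the 31 genes tested, 2 were called higher (edgeR quasi-likelihood test, Benjamini-Hochberg adjusted p under 0.05 over all genes tested), where 8.65% of all 13609 genes tested were higher. None was called lower, where 7.62% of all genes were. At an unadjusted p under 0.05, 8 were higher and 1 lower, against 18.7 and 15.5% of all genes tested. DESeq2 called 6 higher (Anln, Kif23, Mad2l1, Nuf2, Spc24 and Tpx2) and 1 lower (Nusap1), against 15.3 and 12.5% of all genes with an adjusted p. By limma-voom 1 was higher and 0 lower, against 7.39 and 8.8% of all genes tested. The log2 fold change lay above 0 for 23 and below 0 for 8 of the 31 genes, with a median of 0.79, against 0.05 over all genes tested. Without IR24h 2, 5 genes were called higher (Kif23, Ndc80, Nuf2, Spc24 and Tpx2) and 1 lower (Nusap1), against 23.9 and 24.5% of all genes tested. Without IR24h 3, Kif23 alone was called and the median over the listed genes was 0.22, with 5.87% of all genes tested called higher and 5.41% lower. Leaving out sham 1, 2 or 3 left 0 of them called, where 2.03, 1.78 and 2.1% of all genes tested were called higher and 1.7, 1.53 and 1.41% lower.

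**Figure D2:**
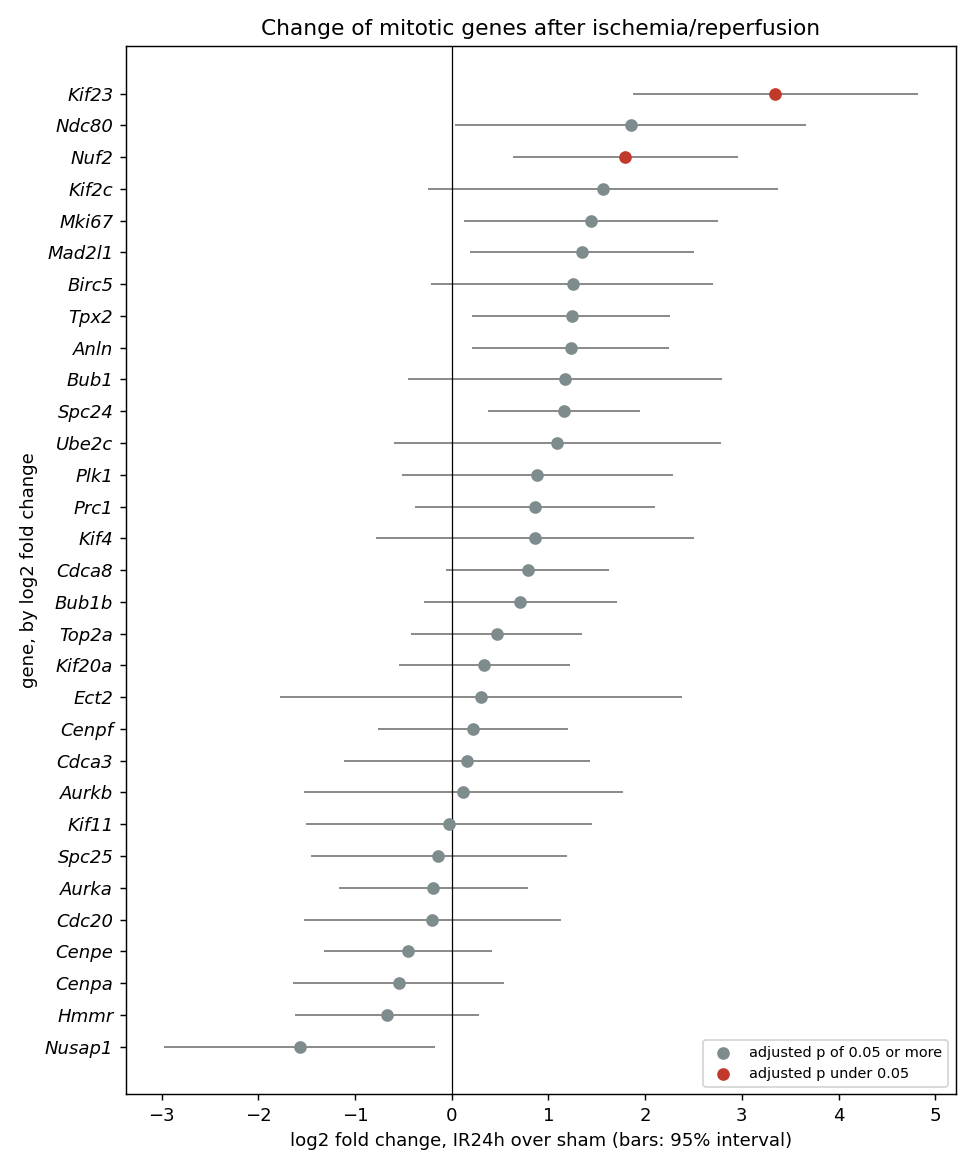
Log2 fold change of IR24h over sham for the 31 genes tested, with 95% intervals of the edgeR fit, 3 libraries a group. Red points passed the test (Kif23 at 3.34 and Nuf2 at 1.79), grey points did not, and most intervals cross 0.

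Complete separation of the groups was seen in 10 of the 32 genes. In 7 of the 32 genes every IR24h library lay above every sham library (Kif23, Nuf2, Spc24, Tpx2, Anln, Mad2l1 and Cdca8), where 19.9% of all genes tested did so. In 3 genes every IR24h library lay below every sham library (Nusap1, Hmmr and Ttk), where 21.7% of all genes tested did so, a share above that of the 32. Ttk was not tested, and its 0 counts in IR24h 1 allow levels above that of sham 3 (0.378 CPM), so its separation is not resolved. Some of the other separations were narrow. In IR24h 1, Hmmr had 1.56 CPM (11 counts), against 1.67 CPM in sham 3. Mad2l1 had 4.69 CPM there (33 counts), against 4.64 CPM in sham 3, and Cdca8 2.84 CPM (20 counts), against 2.46 CPM in sham 1. Whether counting error could close these gaps was not tested.

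The injured libraries spread more widely than the sham libraries. CPM values summed over the 32 genes to 128, 135 and 208 in IR24h 1, 2 and 3 and to 101, 81.5 and 95.3 in sham 1, 2 and 3. Without Spc25 and Kif23, left out after their values were seen, the sums were 62.5, 94.1 and 174 in IR24h 1, 2 and 3 and 79.5, 64.5 and 68.8 in sham 1, 2 and 3. IR24h 3 was the highest of the injured libraries for 25 of the 32 genes (78.1%), while it was the highest for 29.2% of all genes tested. The log2 ratio to the sham mean, with 0.1 CPM added to both, had a median over the 32 genes of −0.15, 0.38 and 1.04 in IR24h 1, 2 and 3, against −0.06, −0.02 and −0.03 over all genes tested. Above all 3 sham libraries stood 10, 18 and 24 of the 32 genes in IR24h 1, 2 and 3, against 41.8, 41.0 and 42.4% of all genes tested. Below all 3 stood 15, 10 and 4 of the 32, against 44.6, 41.7 and 43.4%. IR24h 1 was the shallowest library outside the mitochondrial genome, and 10 of the 32 genes had fewer than 10 counts there, against 1 in each of the other IR24h libraries and 2 to 4 in the sham libraries.

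Markers of other cell types also differed between the injured libraries. The macrophage and monocyte list (10 genes, 3 higher and 0 lower) summed to 182, 104 and 277 CPM in IR24h 1, 2 and 3 and to 90.4 to 96.7 CPM in sham. Its genes did not move together: the 3 higher were Cd68, Itgam and Lyz2. Adgre1 had 0.284, 3.63 and 0.35 CPM in IR24h, against 4.4, 4.52 and 4.32 CPM in sham, and was not called. Ly86 also had a log2 fold change below 0 (−0.52), and that of Ccr2 was 0.09. Lymphocyte markers (7 genes, 1 tested, 0 called) summed to 1.7, 1.07 and 5.42 CPM in IR24h and to 2.32 to 3.08 CPM in sham. The fibroblast and pericyte list (5 genes, 4 higher) summed to 1670, 294 and 682 CPM in IR24h and to 75.1 to 89.4 CPM in sham. Of the neutrophil list (8 genes, 2 tested, both higher), which summed to 15.1, 2.76 and 12.3 CPM in IR24h and to 0.432 to 0.865 CPM in sham, Ly6g and the precursor markers Mpo, Elane and Camp were at 0 in all 6 libraries. The part of these cell types in the values of mitotic genes was not tested.

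**Figure D3:**
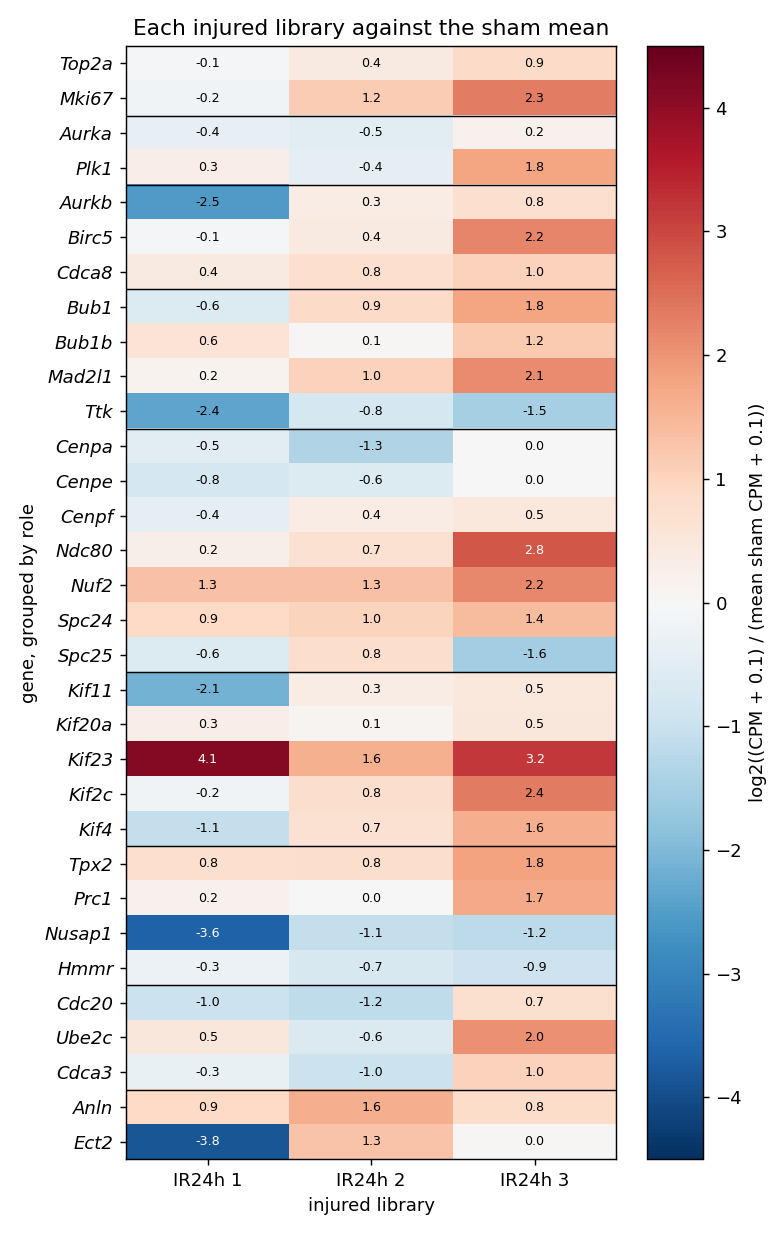
Log2 ratio of each injured library to the sham mean for the 32 genes, grouped by role, on CPM with 0.1 added to both. Red is above and blue below the sham mean: IR24h 3 is red for most genes, IR24h 1 is blue for many, and Kif23 is red in all 3 with its highest value in IR24h 1.

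Mki67 and Top2a are widely read as signs of proliferation. Mki67, which encodes the Ki-67 protein that coats mitotic chromosomes, had 5.82, 14.5 and 31.9 CPM in IR24h 1, 2 and 3, against 7.48, 5.96 and 5.93 CPM in sham 1, 2 and 3. IR24h 2 and 3 lay above all sham libraries, while IR24h 1, with 41 counts, was close to sham 2 and 3. Its log2 fold change was 1.44 ± 0.56 (SE, n = 3 each, adjusted p = 0.119 by edgeR). Without IR24h 1 it was 1.84 and passed the test (adjusted p = 0.0387 by edgeR), where 842 of all 13944 genes tested were called higher. Without IR24h 3 it was 0.67 and did not pass (adjusted p = 0.342 by edgeR). Top2a encodes topoisomerase IIα, which untangles replicated chromosomes. It had 6.11, 8.49 and 11.7 CPM in IR24h, against 8.96, 5.19 and 4.96 CPM in sham, and the groups overlapped. Its log2 fold change was 0.47 ± 0.38 (adjusted p = 0.424 by edgeR), with a 95% interval of −0.42 to 1.35.

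The mitotic kinases showed no called change. Plk1 encodes polo-like kinase 1, which acts on centrosomes, kinetochores and cytokinesis. It had 2.13, 1.28 and 6.03 CPM in IR24h, against 2.0, 1.54 and 1.56 CPM in sham, so that IR24h 3 stood high and IR24h 2 was the lowest of all 6. The fitted difference was 0.88 ± 0.60 on the log2 scale (adjusted p = 0.338 by edgeR), and −0.03 without IR24h 3. Aurka, the Aurora kinase of spindle poles, averaged 1.78 ± 0.502 CPM in IR24h and 2.03 ± 0.485 CPM in sham (SD, n = 3 each).

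In the chromosomal passenger complex, which corrects faulty attachments and guides cytokinesis, Aurkb encodes the kinase, Birc5 (survivin) and Cdca8 (borealin) its targeting subunits. Aurkb had 1, 33 and 26 counts in IR24h 1, 2 and 3, or 0.142, 1.69 and 2.27 CPM, against 1.43, 1.11 and 1.4 CPM in sham. The single count in IR24h 1 has a 95% exact Poisson interval of 0.0036 to 0.791 CPM, below each sham value, while IR24h 2 and 3 lay above all of them. Aurkb had a log2 fold change of 0.12 ± 0.71 (95% interval −1.53 to 1.77, adjusted p = 0.919 by edgeR), which turned to −0.19 when only library size was used for scaling. Birc5 had 1.7, 2.45 and 8.65 CPM in IR24h, against 2.0, 1.59 and 1.83 CPM in sham. Cdca8 had 2.84, 3.68 and 4.54 CPM in IR24h, against 2.46, 1.78 and 2.21 CPM in sham, without overlap, and did not pass the test (log2 fold change 0.79 ± 0.36, adjusted p = 0.171 by edgeR). Incenp, the scaffold of the complex and not one of the 32, rose to 11.1 ± 2.51 CPM in IR24h, against 3.79 ± 0.976 CPM in sham (SD, n = 3 each, adjusted p = 0.0235 by edgeR). The gene length implied by its counts and FPKM values was shorter in IR24h than in sham by 1.2 on the log2 scale, and the part of this difference in its value was not tested. Incenp was not called when only library size was used for scaling (adjusted p = 0.158), nor without any single library other than IR24h 2 (0.0516 to 0.123).

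Of the 4 checkpoint genes 3 were tested, all with log2 fold changes above 0, and none was called by edgeR (1 had an unadjusted p under 0.05). Mad2l1 encodes MAD2, which binds and restrains Cdc20 at unattached kinetochores. It had 4.69, 8.69 and 18.7 CPM in IR24h, against 3.88, 4.13 and 4.64 CPM in sham, with IR24h 1 just above the highest sham library. On the log2 scale the difference was 1.35 ± 0.50 (adjusted p = 0.103 by edgeR), and the test was passed without IR24h 1 (1.69, adjusted p = 0.0468). Without IR24h 3 the difference was 0.68 and was not called (adjusted p = 0.272 by edgeR). Bub1, a kinase that recruits other checkpoint proteins, had 2, 19 and 22 counts in IR24h and 10, 6 and 11 in sham. That is 0.284, 0.971 and 1.92 CPM in IR24h, against 0.571, 0.288 and 0.593 CPM in sham, with overlap (log2 fold change 1.17 ± 0.69, adjusted p = 0.273 by edgeR). Bub1b, which encodes the checkpoint protein BubR1, averaged 2.71 ± 1.06 CPM in IR24h and 1.65 ± 0.194 CPM in sham (SD, n = 3 each). Ttk, the kinase MPS1 that starts the checkpoint signal, did not pass the expression filter. It had 0, 4 and 1 counts in IR24h and 8, 9 and 7 in sham, and the 0 in IR24h 1 allows a level of up to 0.426 CPM (3 counts). Pooled, this was 0.131 CPM in IR24h and 0.422 CPM in sham. With no count filter its log2 fold change was −1.82 ± 0.99 (adjusted p = 0.254 by edgeR).

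The NDC80 complex, a rod of 4 proteins that grips the microtubule, held 1 of the called genes. Nuf2 (ENSMUSG00000026683, chromosome 1 from 169497934 to 169531464, GRCm38) had 12, 33 and 36 counts in IR24h and 7, 17 and 12 in sham. Its levels were 1.7, 1.69 and 3.15 CPM in IR24h, against 0.4, 0.817 and 0.647 CPM in sham, and every injured library lay above every sham library. Nuf2 had a log2 fold change of 1.79 ± 0.50 (SE, adjusted p = 0.0489 by edgeR), close to the threshold. The call was lost under scaling by library size only (1.34, adjusted p = 0.181), with limma-voom (adjusted p = 0.0566), without a count filter (0.0732) and without any library but IR24h 2 (adjusted p = 0.0702 to 0.202). Spc24 had 4.26, 4.55 and 6.12 CPM in IR24h, against 1.88, 2.36 and 2.43 CPM in sham, also without overlap. Its log2 fold change was 1.16 ± 0.34 (adjusted p = 0.0558 by edgeR). It was 1.22 without IR24h 2 (adjusted p = 0.018) and 0.99 without IR24h 3 (adjusted p = 0.123 by edgeR).

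Of the other subunits, Ndc80 had its highest value in IR24h 3, as Nuf2 and Spc24 did, and Spc25 its lowest. Ndc80 had 0.852, 1.18 and 5.51 CPM in IR24h, against 0.971, 0.433 and 0.701 CPM in sham, with IR24h 3 standing high (log2 fold change 1.85 ± 0.78, adjusted p = 0.142 by edgeR). The length implied for Ndc80 was shorter in IR24h by 1.85 on the log2 scale, and the part of this in its value was not tested. Spc25 had 12.2, 32.3 and 6.29 CPM in IR24h, against 18.7, 13.4 and 24.1 CPM in sham. IR24h 2 was the highest and IR24h 3 the lowest of all 6, and the groups overlapped (−0.14 ± 0.57, adjusted p = 0.887 by edgeR). Per length, Spc25 was the most abundant of the 32 genes in each sham library, with 4.03, 2.86 and 4.85 FPKM in sham 1, 2 and 3, where the median of the 32 was 0.339 to 0.423 FPKM. Its partner Spc24 had 0.541, 0.673 and 0.653 FPKM there. Both levels are the authors' FPKM values, compared within libraries.

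The other 3 listed genes of the centromere and kinetochore, Cenpa, Cenpe and Cenpf, overlapped between the groups. Cenpa encodes the histone H3 variant that marks the centromere, and averaged 1.72 ± 0.807 CPM in IR24h and 2.49 ± 0.35 CPM in sham (SD, n = 3 each). Cenpe, a kinetochore motor that aligns chromosomes, averaged 2.76 ± 0.872 CPM in IR24h and 3.78 ± 0.618 CPM in sham. Cenpf, a large kinetochore protein, averaged 1.77 ± 0.558 CPM in IR24h and 1.54 ± 0.217 CPM in sham. None of these passed the test (adjusted p = 0.435 to 0.743 by edgeR). Among 27 tested genes of other centromere and kinetochore proteins, from a list of related genes, 2 rose and 25 were not called, where 8.65% of all genes tested were higher. Their median log2 fold change was 0.84. At an unadjusted p under 0.05 by edgeR, 10 were higher and 1 lower, against 18.7 and 15.5% of all genes tested. Of the 29 genes in that list, tested or not, 14 had every IR24h library above every sham library and 2 below. These stand against 19.9 and 21.7% of all genes tested. Cenpt, which links the centromere to the NDC80 complex, rose to 11.7 ± 3.76 CPM in IR24h, against 3.38 ± 0.241 CPM in sham (log2 fold change 1.78 ± 0.34, adjusted p = 0.0148 by edgeR). Zwilch, a subunit that brings dynein to the kinetochore, rose to 4.81 ± 0.603 CPM in IR24h, against 0.916 ± 0.443 CPM in sham (2.39 ± 0.45, adjusted p = 0.014 by edgeR).

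Among the kinesin motors, Kif23 had the highest log2 fold change of the 31 genes tested and an order of libraries unlike most of them. Kif23 (ENSMUSG00000032254, chromosome 9 from 61915905 to 61946774, GRCm38) encodes MKLP1, the motor of the centralspindlin complex that bundles midzone microtubules before cytokinesis. It had 375, 176 and 314 counts in IR24h and 47, 76 and 45 in sham, or 53.3, 9.0 and 27.4 CPM in IR24h, against 2.68, 3.65 and 2.43 CPM in sham. Every injured library lay above every sham library, and IR24h 1, where 18 of the 32 genes had their lowest injured value, held the highest. Its log2 fold change was 3.34 ± 0.63 (SE, 95% interval 1.87 to 4.82, adjusted p = 0.0149 by edgeR). The implied length of Kif23 did not differ between the groups, and none of its exon bases overlap another GENCODE gene. Its value was 2.63 without IR24h 1, where it passed the test (adjusted p = 0.034 by edgeR), and 1.63 with IR24h 2 as the only injured library. Without sham 1, 2 or 3 it was 3.27, 3.53 and 3.25 and was not called (adjusted p = 0.0723, 0.064 and 0.0786). Per length, by the authors' FPKM, Kif23 ranked 1, 5 and 2 of the 32 genes in IR24h 1, 2 and 3 and 21, 15 and 22 in sham 1, 2 and 3.

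The partner of Kif23 in centralspindlin did not show a change of that size. Racgap1, a related gene named after its values were seen, had 3.84, 3.12 and 9.18 CPM in IR24h, against 3.08, 3.32 and 2.86 CPM in sham. Its groups overlapped, with IR24h 3 high, and its log2 fold change was 0.80 ± 0.47 (95% interval −0.29 to 1.89, adjusted p = 0.265 by edgeR). The difference between the 2 genes was not tested.

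The other kinesins were not called. Kif11, the motor that pushes spindle poles apart, had 0.426, 2.76 and 3.06 CPM in IR24h, against 2.63, 2.4 and 1.56 CPM in sham, with 3 counts behind the value of IR24h 1. Kif2c, which depolymerises microtubules at centromeres, had 0.426, 0.92 and 2.88 CPM in IR24h, against 0.799, 0.385 and 0.27 CPM in sham. Kif4, a chromosome-bound motor, averaged 2.35 ± 1.86 CPM in IR24h and 1.32 ± 0.692 CPM in sham (SD, n = 3 each), and 15.1% of its exon bases lie opposite Pdzd11. Kif20a, a motor of the central spindle, averaged 2.75 ± 0.374 CPM in IR24h and 2.18 ± 0.585 CPM in sham, and 29.3% of its exon bases lie opposite Cdc23. The sources used here do not say whether the libraries kept the strand, so reads of such partners cannot be told apart. The implied lengths of Kif11 and Kif20a were shorter in IR24h by 0.72 and 0.87 on the log2 scale.

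The 4 spindle assembly genes had log2 fold changes in both directions, and none was called by edgeR, while DESeq2 called Tpx2 higher (adjusted p = 0.0398) and Nusap1 lower (adjusted p = 0.0395). Tpx2, which activates Aurora A and seeds microtubules, had 3.98, 4.04 and 8.3 CPM in IR24h, against 1.77, 3.08 and 2.05 CPM in sham, without overlap (1.24 ± 0.44, adjusted p = 0.0932 by edgeR). Nusap1, which bundles microtubules near chromatin, had 2, 43 and 23 counts in IR24h and 103, 83 and 78 in sham. Its levels were 0.284, 2.2 and 2.01 CPM in IR24h, against 5.88, 3.99 and 4.21 CPM in sham, and every injured library lay below every sham library. Nusap1 had a log2 fold change of −1.57 ± 0.60 (adjusted p = 0.114 by edgeR), and −1.91 without IR24h 2, where it passed the test (adjusted p = 0.0421). Hmmr, a spindle protein also known as a hyaluronan receptor, had 1.56, 1.12 and 0.961 CPM in IR24h, against 1.88, 2.16 and 1.67 CPM in sham (adjusted p = 0.284 by edgeR). Prc1, which crosslinks midzone microtubules, had 2.98, 2.56 and 8.65 CPM in IR24h, against 3.03, 2.74 and 2.05 CPM in sham, and IR24h 3 alone lay above the sham libraries.

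The genes of mitotic exit shared a high value in IR24h 3. Cdc20, the activator of the anaphase-promoting complex, had 1.7, 1.48 and 5.77 CPM in IR24h, against 4.0, 2.69 and 3.61 CPM in sham. IR24h 1 and 2 lay below all sham libraries and IR24h 3 above them, with a log2 fold change of −0.20 ± 0.57 (95% interval −1.53 to 1.13, adjusted p = 0.830 by edgeR). Ube2c, the ubiquitin-conjugating enzyme of the complex, had 2.27, 0.971 and 6.82 CPM in IR24h, against 1.43, 1.01 and 2.27 CPM in sham, and 22.8% of its exon bases lie opposite Tnnc2. Cdca3, which is known for its part in the destruction of the mitotic inhibitor Wee1, had 2.56, 1.58 and 6.64 CPM in IR24h, against 2.85, 3.17 and 3.61 CPM in sham. In each of the 3 genes IR24h 2 was the lowest library of all 6 and IR24h 3 the highest. Of 16 related genes of the anaphase-promoting complex, 1 rose and 15 were not called, where 8.65% of all genes tested were higher. Their median log2 fold change was 0.02. The gene that rose was Anapc4, a scaffold subunit, with 51.4 ± 12.2 CPM in IR24h and 23.9 ± 1.57 CPM in sham (1.11 ± 0.26, adjusted p = 0.0291 by edgeR). Under scaling by library size only its log2 fold change was 0.57 and it was not called (adjusted p = 0.353).

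Anln and Ect2, the genes listed under cytokinesis, had their highest injured value in IR24h 2. Among other listed genes with a part in cytokinesis, Plk1 and Aurkb had theirs in IR24h 3 and Kif23 in IR24h 1. Anln encodes anillin, which organises the contractile ring, and had 3.27, 5.57 and 3.15 CPM in IR24h, against 2.4, 1.2 and 1.56 CPM in sham. IR24h 2 stood highest and the groups did not overlap (1.23 ± 0.44, adjusted p = 0.0942 by edgeR). Ect2, the exchange factor that activates RhoA at the division plane, had 1, 164 and 40 counts in IR24h and 73, 50 and 66 in sham. That is 0.142, 8.38 and 3.5 CPM in IR24h, against 4.17, 2.4 and 3.56 CPM in sham, so that IR24h 1 and 2 were the extremes of all 6 libraries. For Ect2 the log2 fold change was 0.30 ± 0.89 (95% interval −1.78 to 2.38, adjusted p = 0.839 by edgeR), and −0.78 without IR24h 2. Cit, a related gene for citron kinase of the midbody, fell to 4.6 ± 1.6 CPM in IR24h, against 12.5 ± 1.2 CPM in sham (−1.43 ± 0.34, adjusted p = 0.0293 by edgeR).

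**Figure D4:**
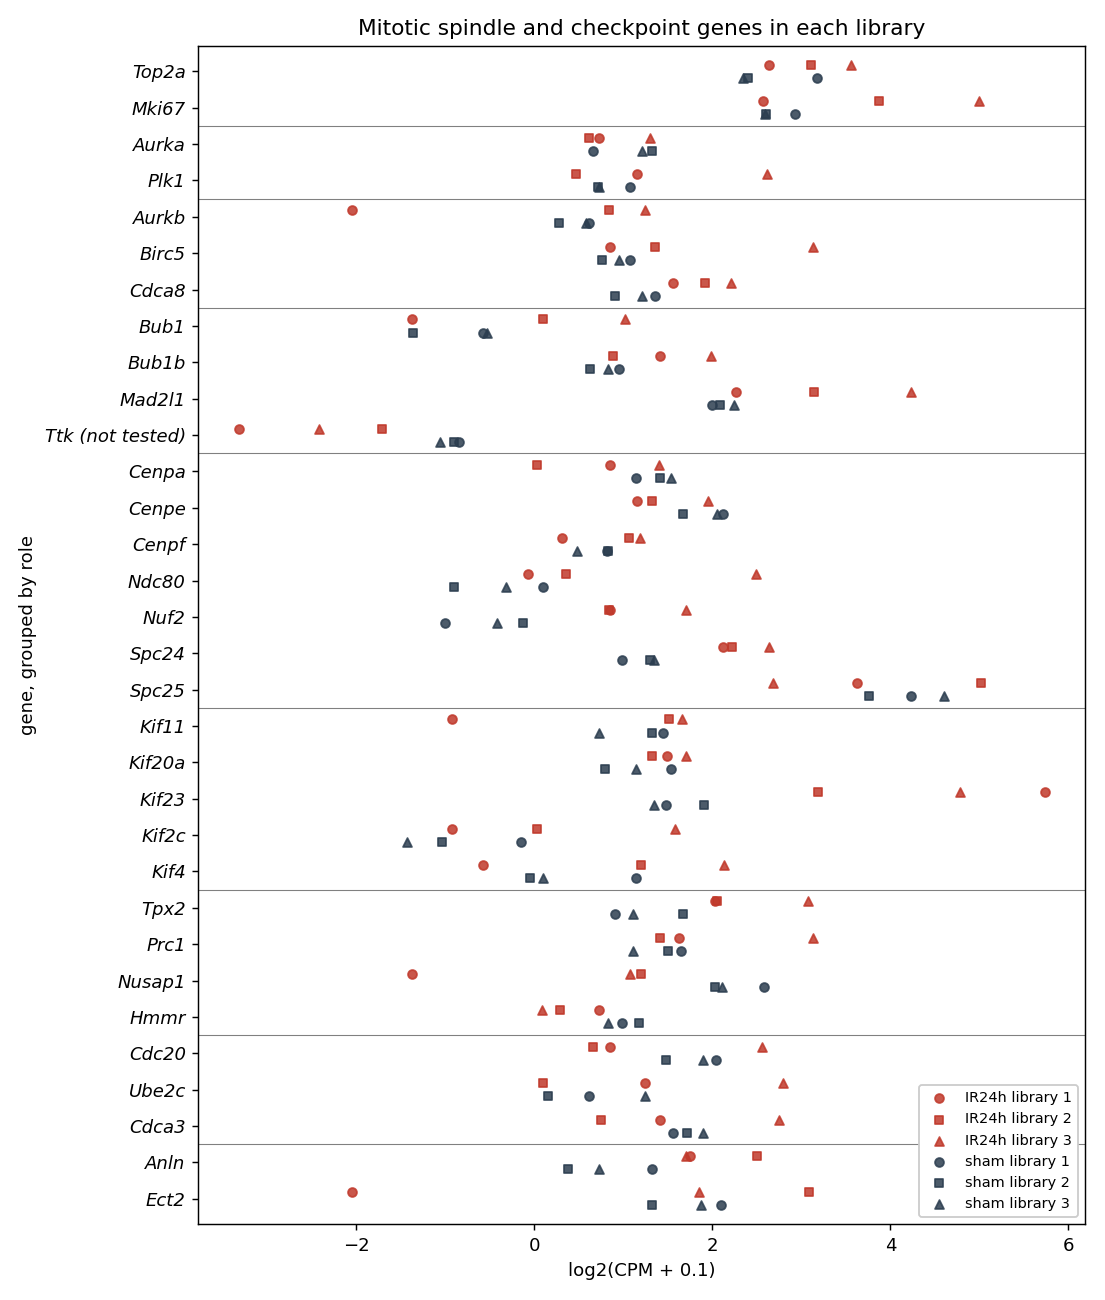
Levels of the 32 genes in the 6 libraries as log2(CPM + 0.1), grouped by role, with IR24h in red above sham in dark blue and the marker shape giving the library number. Sham values lie close together for most genes, IR24h values spread widely, and Kif23, Nuf2 and Spc24 are among those with no overlap.

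Of 115 related mitotic genes, 107 passed the expression filter, 6 rose, 1 fell and 100 were not called, with a median log2 fold change of 0.41. These shares stand against the 8.65 and 7.62% of all genes tested that were higher and lower. In the mitotic transcription programme, Mybl2, which encodes B-Myb, a partner of MuvB at CHR elements, had 7.67, 2.86 and 5.68 CPM in IR24h, against 1.08, 1.39 and 1.51 CPM in sham. It rose without overlap (2.0 ± 0.46, adjusted p = 0.0269 by edgeR) and was the only called gene of the 15 tested there. Foxm1, the forkhead factor that joins MuvB in G2, had 1.7, 1.79 and 8.91 CPM in IR24h, against 1.66, 1.35 and 2.43 CPM in sham. IR24h 3 alone stood above all sham libraries (1.19 ± 0.70, adjusted p = 0.268 by edgeR). Trip13, the ATPase that recycles MAD2, rose to 2.35 ± 1.22 CPM in IR24h, against 0.466 ± 0.191 CPM in sham (2.34 ± 0.57, adjusted p = 0.0318 by edgeR). Incenp and Trip13 were the called genes among 11 tested of checkpoint and cohesion protection. None of the 16 condensin and cohesin genes was called by edgeR, 2 having an unadjusted p under 0.05. Scaling by library size only, which shifts the median of all genes to −0.39, left none of the 107 called, against 2.92 and 4.49% of all genes tested, and without sham 1, 2 or 3 there were 1, 0 and 0 higher and 0 lower. Those sham leave-outs called 2.03, 1.78 and 2.1% of all genes tested higher and 1.7, 1.53 and 1.41% lower. Without IR24h 3 there were 3 higher and 0 lower, against 5.87 and 5.41% of all genes tested. Without IR24h 2 there were 22 higher and 9 lower, against 23.9 and 24.5% of all genes tested.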

How the data were processed

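RNA of renal cortex was sequenced in 3 IR24h and 3 sham libraries, made by a TruSeq protocol from AMBION extracts per the labels' protocols. Per the submitters' processing notes, CASAVA 1.8 and TopHat2 2.0.6 were used, with mm10 and GRCh38 named as builds. The read counter and annotation: not given in the sources used here. The authors deposited raw counts of reads per gene and FPKM values, per the file headers. Of 22040 genes, 83 had no sham value and were left out. Identifiers were matched to GENCODE M21 (GRCm38).

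Counts and FPKM together imply a gene length, which differed between the groups by more than 0.01 (log2) for 1866 of 14239 genes with at least 5 counts (13.1%). The cause of this difference was not tested.

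Counts were tested with edgeR 4.0.16 (quasi-likelihood, TMM scaling, expression filter, 2-sided, Benjamini-Hochberg adjustment over all 13609 genes tested) in R 4.3.3, with limma 3.58.1 and DESeq2 1.42.0 as alternatives. The fit was tested on simulated counts set to vary less between libraries than these data, which cannot show how it performs on them. SEs derive from the F statistic. The common biological coefficient of variation was 0.394, and intervals cover 95%. Poisson intervals and the limit of 3 counts cover counting error only. Python 3.11.15 with pandas 2.3.3 and matplotlib 3.10.9 served for tables and plots.

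The 32 genes and all lists were chosen with earlier results of these data known. Values in every library are given for the called genes and for Mki67, Top2a, Plk1, Aurkb, Cdc20 and Bub1, and for others where libraries differ. Related genes are named when called, up to the 2 highest and 2 lowest of each role, and Foxm1 and Mybl2 in any case. Promoters were searched as described in the text.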

Additional observations from a re-analysis of the deposited data

How the results depend on the processing

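Kif23 kept its direction under every alternative. In fits with more than 1 injured library, it kept its call except where a sham library was left out. Of 635 log2 fold changes of 40 named genes, 531 kept direction and side of the threshold, 52 lost the call, 18 gained it and 34 reversed. Only genes called by the main edgeR fit (2 listed, 6 and 1 related) could lose a call, so the 52 losses fall on these alone. Most of the 531 belong to genes not called there. With the listed genes called higher and lower (2 and 0), the related genes (6 and 1) and all genes (1177 and 1037) as the base, scaling by library size only called 1 and 0, 0 and 0, and 398 and 611. DESeq2 called 6 and 1, 18 and 4, and 2073 and 1695. IR24h 2 as the only injured library, assumed to vary like the sham libraries, gave 6 and 1, 25 and 3, and 2690 and 2749. Upper-quartile scaling called 3 listed and 10 related genes higher, with 1381 of all 13609 genes tested. Leaving out mitochondrial genes called 11 related genes higher, with 1270 of all 13744 genes tested. No count filter, limma-voom and genes of like implied length each called 1 listed gene higher, Kif23. Of all 17245, 13609 and 11687 genes tested there, 1131, 1006 and 879 were called higher. Leaving out each library in turn gave 0 to 5 higher and 0 to 1 lower of the listed genes, 0 to 22 and 0 to 9 of the related genes, and 246 to 3297 and 196 to 3382 of all genes. The median over the listed genes was 0.22 without IR24h 3. Reversals under library size only were Aurkb −0.19, Cenpf −0.17, Kif20a −0.14 and Cdca3 −0.35, and under limma-voom Aurkb −0.25, Cdca3 −0.16 and Ect2 −0.35. Upper-quartile scaling gave Kif11 0.05. With IR24h 2 alone Plk1 was −0.39, Spc25 0.80, Kif11 0.34, Prc1 −0.01, Ube2c −0.67, Cdca3 −1.01 and Foxm1 0.00. Leaving out each library in turn also turned the sign of some genes, with ranges of −0.03 to 1.29 for Plk1, −0.36 to 0.58 for Aurkb, −1.04 to 0.26 for Spc25, −0.36 to 0.40 for Kif11, −1.12 to 0.16 for Cdc20, −0.01 to 1.56 for Ube2c, −0.67 to 0.54 for Cdca3, −0.78 to 0.82 for Ect2 and −0.05 to 1.59 for Foxm1. The causes were not tested. With the number of a library as a replicate block, 1 listed gene was called higher (Kif23, adjusted p = 0.0276 by edgeR) and 0 lower. Of all 13609 genes tested with this block, 814 were called higher and 843 lower. Aurkb was −0.15, Cdca3 −0.08 and Ect2 −0.27 there. Same-numbered libraries deviated with correlations of −0.109, 0.12 and 0.233, and IR24h 3 alone correlated best with its own number, so the numbers were not taken as pairs. Depth was a limit in IR24h 1, where 10 of the 32 genes had fewer than 10 counts, against 1 to 4 in each of the other libraries.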
